A study of Homo sapiens with 14 samples.

Results

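The TGF-beta, activin and BMP genes described here are 10 genes of 1 signalling family, measured as messenger RNA in IMR90, a widely used line of fibroblasts from human lung. The members were taken from a list of gene symbols, and all 10 were found, out of 57791 genes in the tables of old and young cells, 54628 in the tables of the knockdown and 38716 in the tables of ICM-treated cells. They are 5 ligands (TGFB1, TGFB2, TGFB3, INHBA and BMP4), 3 receptors (TGFBR1, TGFBR2 and TGFBR3) and 2 secreted antagonists (FST and GREM1).

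Sequencing of poly(A) RNA covered 7 groups, each with 2 samples by title. Isolates I79 and I10 of the line were sampled young (low passage, proliferating) and old (high passage, senescent), untreated. I79 cells were also treated with ICM (inflachromene), a compound known to bind HMGB1 and HMGB2, a pair of chromatin proteins. The remaining groups were wild type (WT) and HMGB2 KD, in which HMGB2 was depleted by siRNA. Their isolate, and whether WT received a control siRNA, are not given in the sources used here. All groups come from 1 cell line, so that replicates are cultures or libraries and not donors.

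The WT and HMGB2 KD tables held 33561766 to 41168932 gene counts a library, those of old and young cells between 14991385 and 20632959 estimated counts, and those of ICM-treated cells 13290131 and 10971132 reads. The old and young groups had 1 table each, taken as the authors' pooled value, whereas WT, HMGB2 KD and ICM had 2. HMGB2 itself had 27.1 and 27.3 CPM (counts scaled to library size) in the WT libraries, against 3.22 and 3.64 after knockdown, a log2 fold change (log2FC) of -2.99. Of 10 fibroblast markers, all exceeded 10 CPM in every library, and 6 epithelial markers summed to between 0.268 and 1.41 CPM. Of the 5 immune markers only the lysosomal protein CD68, and of the 3 endothelial markers examined only the receptor TEK, exceeded 10 CPM in any library.

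Ligands of this family are dimers that bring together type I and type II serine/threonine kinase receptors, which then phosphorylate SMAD proteins. TGF-beta ligands and activins act mainly through SMAD2 and SMAD3, and BMPs through SMAD1, SMAD5 and SMAD9. TGF-beta ligands are secreted in a latent form and must be released from it. In lung fibroblasts TGF-beta is known for inducing matrix and contractile genes, and TGFB1 and INHBA (which encodes the activin A subunit) are known among the proteins that senescent cells secrete.

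The 4 members that passed the tests below were TGFB1, FST and BMP4 (HMGB2 KD against WT) and TGFBR2 (old against young). Their promoter sequences are shown because these 4 carry the called changes. Each is the 250 bases before the most upstream RefSeq start of the gene (GRCh38.p14), 5′ to 3′ on the gene's strand, and capitals mark GC boxes (GGGCGG or CCGCCC) and the SMAD box (CAGAC or GTCTG). The windows are chr19:41353923-41354172 (minus strand) for TGFB1, chr5:53480379-53480628 (plus) for FST, chr14:53955051-53955300 (minus) for BMP4 and chr3:30606106-30606355 (plus) for TGFBR2.
TGFB1: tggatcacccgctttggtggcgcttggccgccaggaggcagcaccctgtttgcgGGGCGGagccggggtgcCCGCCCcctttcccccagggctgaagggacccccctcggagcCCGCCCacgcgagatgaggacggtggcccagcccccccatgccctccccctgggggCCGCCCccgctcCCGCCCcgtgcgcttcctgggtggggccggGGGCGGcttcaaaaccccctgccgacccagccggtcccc
FST: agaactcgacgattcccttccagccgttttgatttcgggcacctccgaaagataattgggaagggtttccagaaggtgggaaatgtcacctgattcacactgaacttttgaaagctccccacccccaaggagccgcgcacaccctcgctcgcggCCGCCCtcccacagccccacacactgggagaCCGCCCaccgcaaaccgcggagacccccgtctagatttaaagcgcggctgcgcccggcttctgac
BMP4: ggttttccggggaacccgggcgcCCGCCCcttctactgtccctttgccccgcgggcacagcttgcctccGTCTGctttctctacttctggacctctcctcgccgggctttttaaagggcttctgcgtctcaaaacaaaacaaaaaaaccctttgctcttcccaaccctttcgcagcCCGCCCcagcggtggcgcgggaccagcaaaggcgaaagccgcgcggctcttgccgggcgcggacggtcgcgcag
TGFBR2: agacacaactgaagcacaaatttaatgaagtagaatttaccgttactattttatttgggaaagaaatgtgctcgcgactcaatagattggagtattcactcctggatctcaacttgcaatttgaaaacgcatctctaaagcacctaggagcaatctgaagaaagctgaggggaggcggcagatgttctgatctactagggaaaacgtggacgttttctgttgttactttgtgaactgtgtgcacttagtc

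The windows differed in composition. The TGFB1 window was 76.8% G or C and held 6 GC boxes and no SMAD box. The BMP4 window (63.6% G or C) held 2 GC boxes and 1 SMAD box, and the FST window held 2 GC boxes. The TGFBR2 window, at 40.8% G or C, held neither motif, although another start of TGFBR2 had 2 GC boxes before it. RefSeq lists 22 such windows for the 10 genes. A GC box on either strand lay in 11 of the 22, and in 42.6% of all 35116 windows of this length. A SMAD box lay in 10 of the 22 and in 38.0% of all windows. Genes can have several windows, and some of these overlap, as for TGFBR1. Counted by gene, a SMAD box lay in 5 of the 10 members and in 11677 of 27305 genes. A GC box lay in 7 of the 10 members and in 12625 of 27305 genes. The AP-1 letters (TGAGTCA or TGACTCA) were in 0 of the 22 and in 4.2% of all. These are matches of letters, not measured sites.

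On GRCh37, the build of the gene tables, TGFB1 lies on chromosome 19 from 41807492 to 41859827 (minus strand), TGFBR2 on chromosome 3 from 30648093 to 30735634 (plus), FST on chromosome 5 from 52776456 to 52782964 (plus) and BMP4 on chromosome 14 from 54416454 to 54425479 (minus). Of the 10 genes, FST alone overlaps no other annotated gene. TGFB1 overlaps 4 other coding genes and TGFB3 overlaps 1. Whether strand was used in counting is not given in the sources used here, so reads of overlapping genes may be shared in part.

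Levels could be compared between genes only per transcript length, as the deposited TPM (a count scaled by transcript length and by library) of the old and young tables, summed per gene. GREM1, a secreted BMP antagonist, led in all 4 tables, with 1078 and 1130 TPM in young I79 and I10 cells and 984 and 2071 TPM in old ones. FST, which binds and neutralises activins, came next with 140 to 265 TPM. TGFB3 was last in all 4, with 1.43 to 9.17 TPM. The order in between moved with age in both isolates. In young cells BMP4 (72.0 and 78.7 TPM), TGFB1 (68.2 and 69.4) and TGFBR1 (67.3 and 68.1) were close together and TGFBR2 lay below them (51.3 and 53.1). In old cells TGFBR2 ranked after FST (121 in I79 and 94.3 in I10), and BMP4 ranked below TGFB1 and TGFBR1 (34.8 and 46.9). With 1 table a group these neighbours have no spread of their own, and ranks of genes with close TPM were not told apart.

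**Figure D1:**
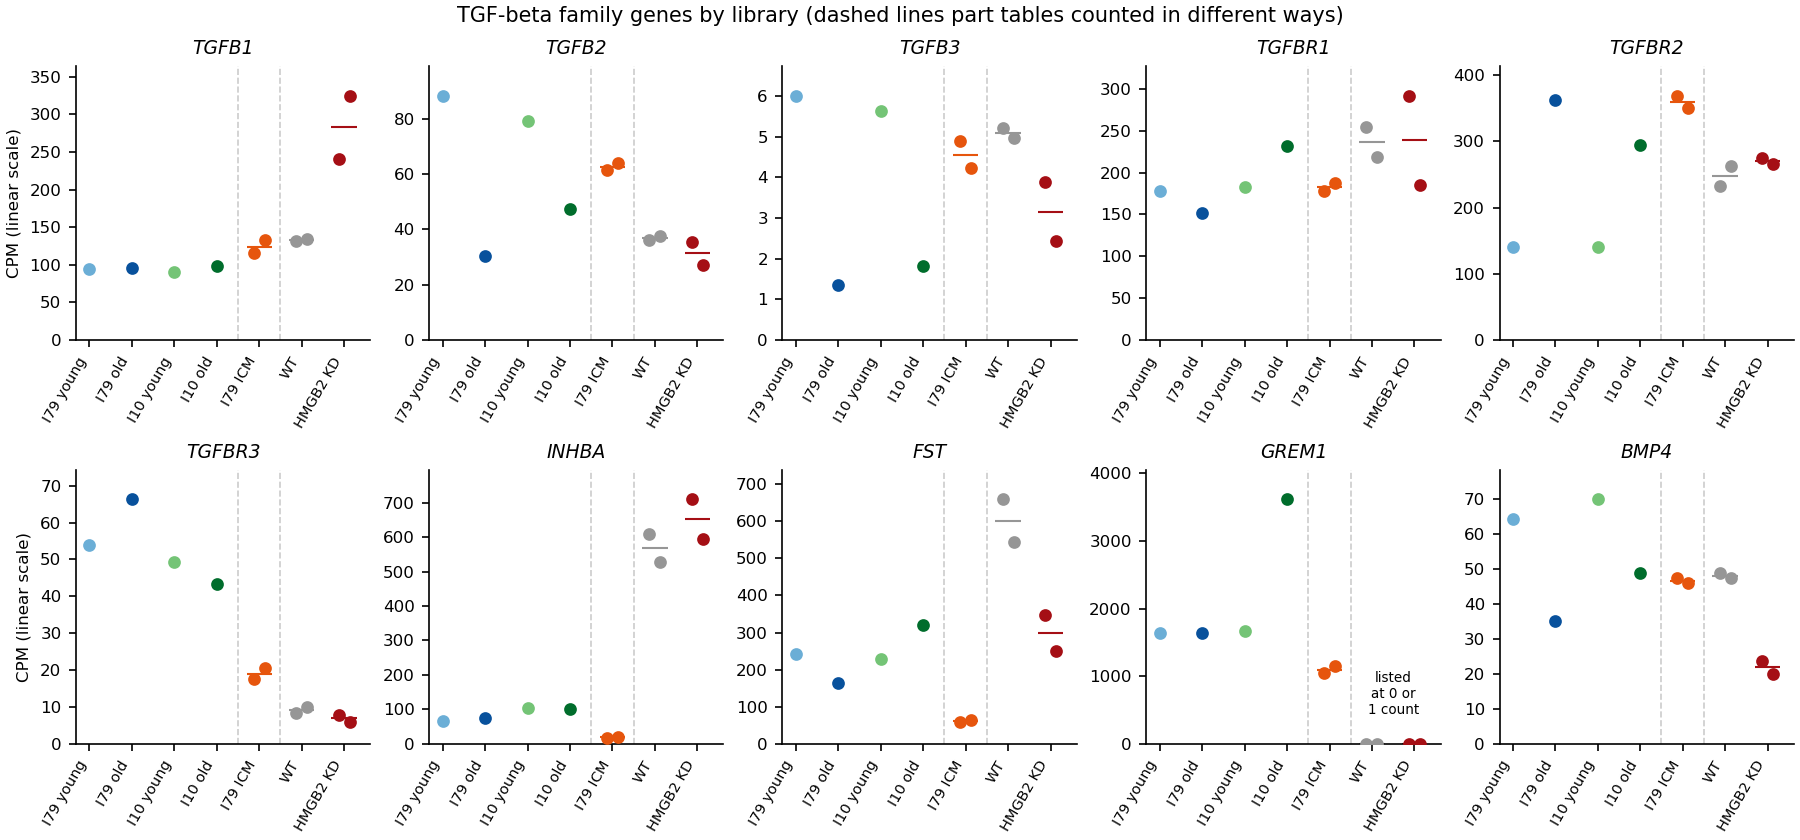
Each panel plots 1 of the 10 genes as CPM on a linear axis from 0, with 1 point a table or library (old and young: 1 table a group; ICM, WT and HMGB2 KD: 2 libraries, bar at their mean). Dashed lines part tables counted in different ways, so levels are compared only within a part. WT and HMGB2 KD do not overlap in 7 of 9 members tested, TGFB1 and BMP4 among them, against 53.8% of all genes tested. Young and old tables do not overlap in 5 of 10 members, TGFBR2 among them, against 74% of all genes tested.

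The knockdown libraries address which transcripts respond when HMGB2, a chromatin protein that is lost at senescence, is depleted. Of the family, TGFB1 rose, and FST and BMP4 fell. The call required an adjusted p under 0.01 by edgeR's quasi-likelihood test and an absolute log2FC over 0.6. GREM1 did not enter the test, and 3 of the 9 members tested were called, 1 higher and 2 lower. Over all 15338 genes tested, 797 were called (5.2%), with 2.86% called higher and 2.34% called lower. Scaling by library totals, chosen after seeing the data, moved the share of calls that were higher from 55.0% to 44.3%. WT and HMGB2 KD did not overlap in 7 of the 9 members, against 53.8% of all genes tested, so separation alone says little at 2 against 2.

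TGFB1, the most widely studied ligand of the family, had 131 and 134 CPM (scaled by TMM factors) in the WT libraries, against 241 and 325 CPM with HMGB2 depleted. The knockdown libraries were both higher than both WT libraries, and they also differed more between themselves. The means were 133 ± 2.26 and 283 ± 59.8 CPM (SD, n = 2), a 2.13-fold difference. The log2FC was 1.09 (SE 0.16, adjusted p 0.000536).

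BMP4, a ligand of the BMP branch, stood at 48.8 and 47.3 CPM in the WT libraries, against 23.8 and 20 CPM with HMGB2 depleted. Both knockdown libraries lay far below WT, with little spread within either group. The log2FC was -1.13 (SE 0.14, adjusted p 0.000202). FST went from WT levels of 660 and 545 CPM to 347 and 249 CPM with HMGB2 depleted, without overlap. Its log2FC was -1.01 (SE 0.17, adjusted p 0.00193). The FST call was lost without HMGB2 KD replicate 2, where its log2FC was -0.79 and the adjusted p 0.0253, the highest of 10 alternatives, which ran from 1.42e-12.

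The other ligands did not pass. TGFB2 stood at 36.3 and 37.7 CPM in the WT libraries, against 35.5 and 27.2 CPM with HMGB2 depleted (log2FC -0.24, SE 0.15). TGFB3, the lowest member, had 179 and 186 counts in WT and 142 and 97 in HMGB2 KD, or 5.23 and 4.98 against 3.88 and 2.43 CPM. Its log2FC was -0.70 (SE 0.27, adjusted p 0.128), so a difference of this size was not told apart from the spread. INHBA stood at 609 and 527 CPM in the WT libraries, against 710 and 594 CPM with HMGB2 depleted, with overlap (log2FC 0.20, SE 0.15).

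None of the 3 receptors passed either. TGFBR1, the type I receptor for TGF-beta, spanned 185 to 292 CPM within HMGB2 KD alone, which contained both WT values (255 and 218), and its log2FC was 0.013 (SE 0.19). Its sign turned with the scaling and with the libraries used. TGFBR2, the type II receptor, stood at 232 and 262 CPM in the WT libraries, against 274 and 266 CPM with HMGB2 depleted (log2FC 0.13, SE 0.14). TGFBR3, the co-receptor betaglycan, stood at 8.27 and 9.96 CPM in the WT libraries, against 7.73 and 5.99 CPM with HMGB2 depleted (log2FC -0.41, SE 0.20, adjusted p 0.238).

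GREM1 was listed with 0 counts in both WT libraries and with 1 and 0 counts in HMGB2 KD, while it stood between 1040 and 3263 CPM by library total in the other 6. Genes that every cell uses were also at or near 0 in these 4 tables, among them the ribosomal protein genes RPL7A and RPS18 (0 counts in all 4) and LDHA (3, 0, 0 and 0 counts). Of 1133 genes above 100 CPM by library total in all 6 other libraries, 21 were under 0.1 CPM in all 4 of these. The 0 of GREM1 is therefore given as listed, with no level and no fold.

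**Figure D2:**
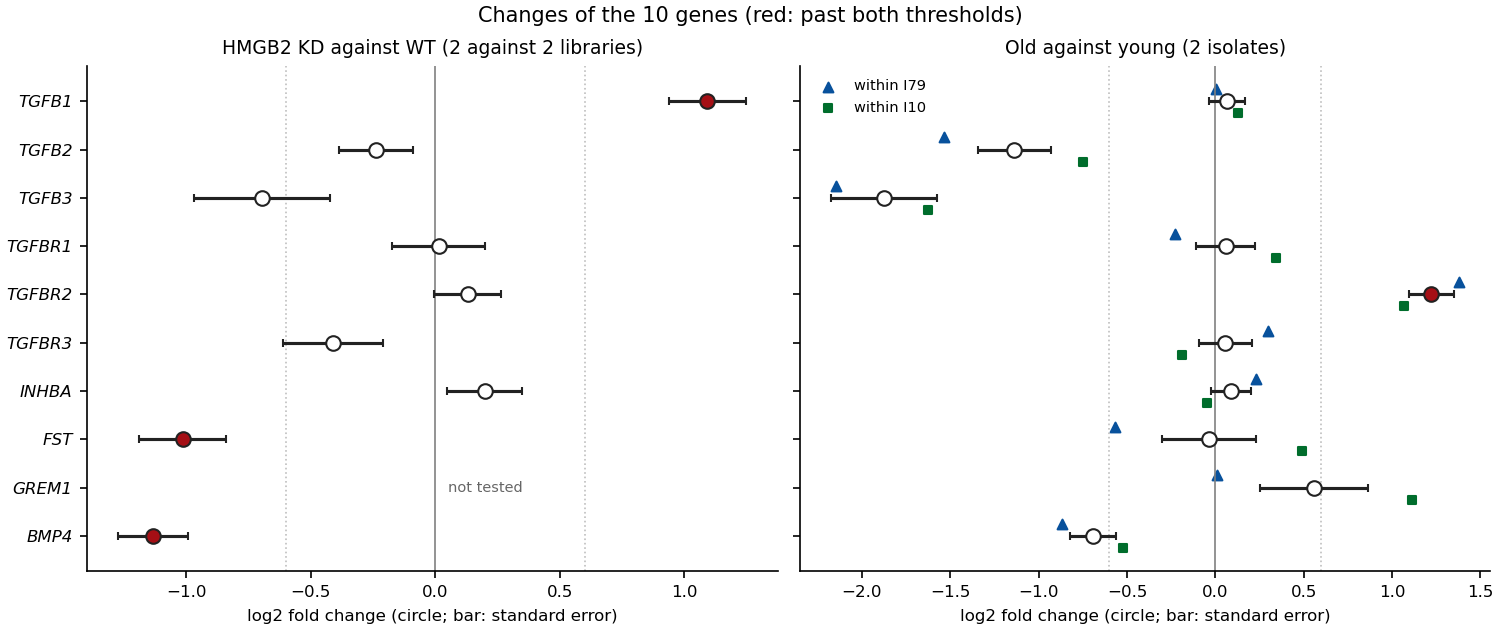
Log2FC of each member for HMGB2 KD against WT (left) and old against young (right), as circles with the standard error as a bar; red circles passed both thresholds, and dotted lines mark a log2FC of 0.6 in either direction. Triangles and squares give the log2 ratio of old to young within I79 and within I10, and they lie on opposite sides of 0 for TGFBR1, TGFBR3, INHBA and FST.

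The wider pathway was read from 8 lists with 116 genes in all, of which 98 were tested after the knockdown. The lists were chosen with earlier results of these data known, so their shares are a description and no independent support. Of these 98 genes, 28 were called (28.6%, against 5.2% of all genes tested), 22 higher and 6 lower. Their median log2FC was 0.29, beside 0.00 over all genes tested. The counts of single lists below stand beside the same 5.2%. The target genes of TGF-beta made up most of the calls. All 26 were tested, 16 rose and 0 fell (61.5% called), and their median log2FC was 0.94. Leaving out each library in turn gave 12 to 17 called, and the lowest count came without HMGB2 KD replicate 2. At most 1 of the 26 was called lower in those fits.

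Contractile and matrix genes were among the largest of these target changes. ACTA2, the smooth muscle actin of myofibroblasts, stood at 105 and 201 CPM in the WT libraries, against 462 and 628 CPM with HMGB2 depleted (log2FC 1.83, SE 0.24). TAGLN, an actin-binding protein, stood at 256 and 444 CPM in the WT libraries, against 947 and 1405 CPM with HMGB2 depleted (1.75, SE 0.24). Both differed between the WT libraries themselves, but neither overlapped between the groups. ELN, which encodes elastin, went from 68.1 and 86.3 to 199 and 277 CPM (1.62, SE 0.17), and the vasoactive peptide gene EDN1 from 3.13 and 3.05 to 9.07 and 9.63 CPM (1.6, SE 0.21). Of the 10 target genes that did not pass, 8 had a log2FC above 0, among them CCN2 (0.39, SE 0.14), TGFBI (0.19, SE 0.14) and SMAD7 (0.27, SE 0.13). The other 2 lay below 0, IL11 (-0.73, SE 0.24) and ADAM12 (-0.49, SE 0.16). The 10 fibroblast markers summed to 23483 and 30775 CPM in WT and to 35797 and 43377 CPM in HMGB2 KD, but they did not move one way. COL1A1, COL6A3, PDGFRB and VIM rose, COL3A1 fell (log2FC -1.18, SE 0.16), and the other 5 were not called, among them PDGFRA (-0.70, SE 0.16). COL1A1 and COL1A2 are also on the target list. The part of these markers in the target list was not tested. The smooth muscle marker MYH11 was listed at 0 in all 4 libraries, but stood at 32.3 and 28.5 CPM in young I79 and I10 cells. Like that of GREM1, this 0 is given as listed, with no level.

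BMP target genes were called at a share nearer to that of all genes. Of 12 tested, 1 fell and 0 rose (8.33%, against 5.2% of all genes tested), with a median log2FC of -0.17. The gene called was ATOH8, a transcription factor, which went from WT levels of 44.2 and 42.4 CPM to 20.9 and 26.8 CPM with HMGB2 depleted. ID1, a widely used reporter of BMP signalling, had a log2FC of -0.56 (SE 0.15) and was not called. The 8 SMAD genes did not pass, and their log2FC ran from -0.65 (SMAD9) to 0.47 (SMAD3).

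Among the other secreted antagonists, 3 of 9 tested were called. FSTL3, a relative of FST that also binds activins, rose from 21.6 and 24.0 CPM to 74 and 106 CPM (log2FC 1.98, SE 0.17). TWSG1, which binds BMPs together with chordin, fell from 375 and 423 CPM to 197 and 169 CPM (-1.13, SE 0.14). FST and FSTL3 thus changed in opposite directions in the same libraries.

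Of the other ligands, BMP5 fell from 10.2 and 8.41 to 2.79 and 1.18 CPM (log2FC -2.23, SE 0.32), and GDF15, a stress-induced member, fell from 602 and 365 to 221 and 192 CPM (-1.23, SE 0.20). These were 2 of 12 tested. Of 13 other receptors and co-receptors tested, 3 rose: RGMB (0.97, SE 0.14) and NEO1 (0.69, SE 0.13), a BMP co-receptor and its partner neogenin, and ACVR1 (0.72, SE 0.13), a type I receptor for BMPs. ACVRL1, a further type I receptor, fell (-0.79, SE 0.13). Of 15 genes for latency and activation, 3 rose, namely LTBP2 (1.06, SE 0.19), the matricellular protein THBS1 (0.83, SE 0.17) and the proprotein convertase FURIN (0.70, SE 0.14). Of 12 SMAD regulators, PMEPA1 alone was called (0.62, SE 0.13). LTBP2 and PMEPA1 also stand on the list of TGF-beta target genes, so their calls are counted there as well.

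**Figure D3:**
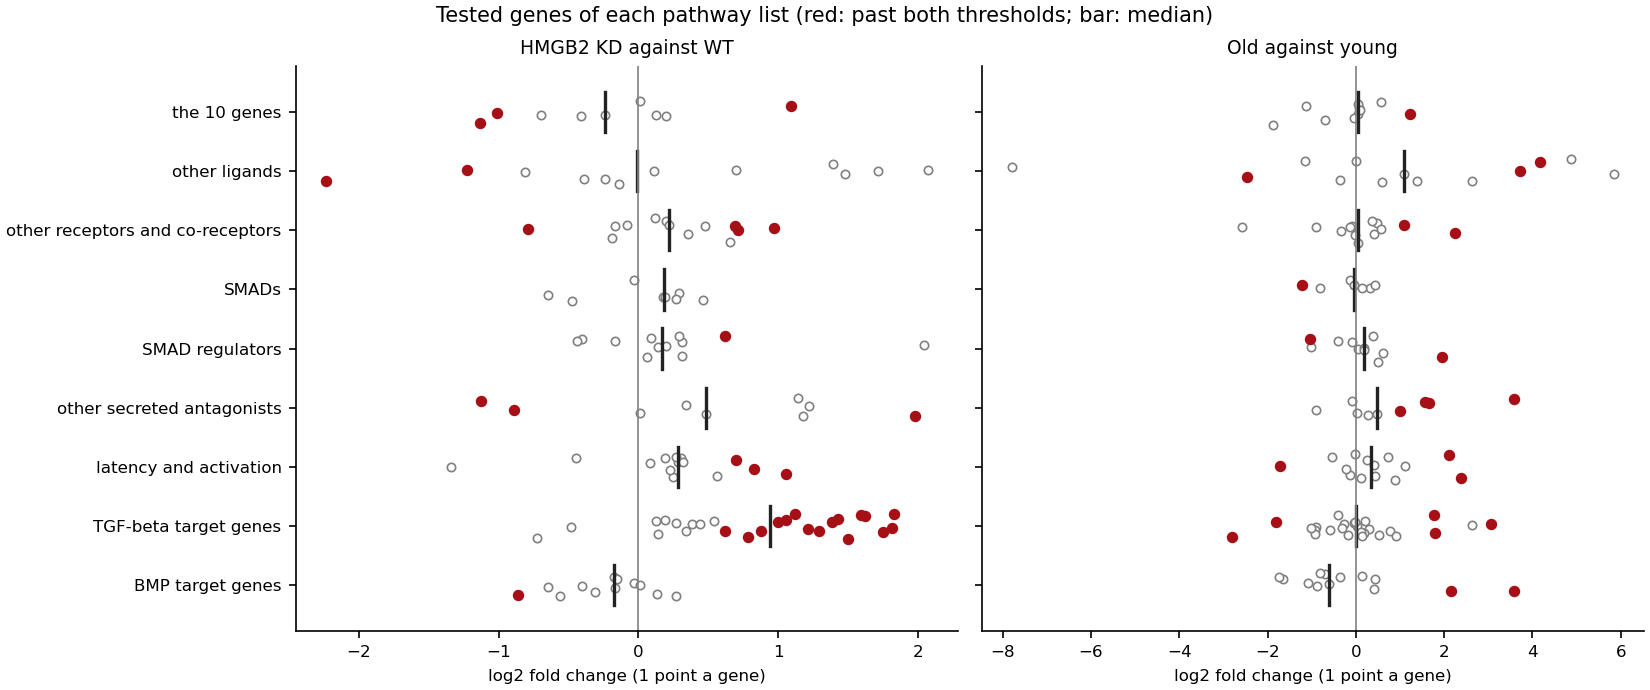
Log2FC of each tested gene of the 10 members and of the 8 wider lists, for HMGB2 KD against WT (left) and old against young (right), with 1 point a gene, red where it passed both thresholds, and a bar at the median. On the left 16 of 26 TGF-beta target genes are red and these 16 lie above 0, and on the right 3 are red above 0 and 2 below. The lists were chosen with earlier results of these data known.

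The comparison of old with young cells addresses replicative senescence, with the 2 isolates as the only replicates and 1 residual degree of freedom. TGFBR2 rose, and it was the single member of 10 that passed. Over all 15116 genes tested, 1447 (9.57%) were called, 5.75% higher and 3.82% lower, so that the share of members called was close to the background. Scaling by library totals moved the share of calls that were higher from 60.1% to 32.6%. TGFB2, TGFB3 and BMP4 passed at an adjusted p under 0.05 together with the same log2FC limit, which 25.5% of all genes did. The young tables did not overlap the old ones in 5 of 10 members, against 74% of all genes tested.

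TGFBR2 stood at 140 and 141 CPM in young I79 and I10 cells and at 363 and 295 CPM in old ones. The young levels were alike, and both old levels lay far above them. The log2FC was 1.22 (SE 0.13, adjusted p 0.00614). Within I79 the ratio was 2.60-fold (log2 1.38, exact 95% counting interval 1.31 to 1.45), and within I10 it was 2.10-fold (log2 1.07, interval 1.00 to 1.13). The intervals cover counting error only. The marker CD68 moved with age as well, from 21.4 and 23.2 CPM in young to 158 and 84.5 CPM in old cells, and TEK from 95.3 and 66.0 to 214 and 165 CPM. The other immune and endothelial markers were under 10 CPM in all 4 tables. Whether these bear on TGFBR2 was not tested.

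TGFB2 stood at 88.4 and 30.5 CPM in young and old I79 cells, and at 79.3 and 47.2 CPM in those of I10. The old table was the lower of the pair in both isolates, with log2 ratios of -1.54 (interval -1.68 to -1.39) and -0.75 (-0.87 to -0.63). The log2FC was -1.14 (SE 0.21) and the adjusted p 0.0189, short of the limit of 0.01. TGFB3 had 94 and 25 estimated counts in I79 young and old, and 108 and 33 in I10. Its levels were 6.02 and 1.36 CPM in I79 and 5.63 and 1.82 CPM in I10. The log2FC was -1.88 (SE 0.30, adjusted p 0.0136).

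BMP4 stood at 64.3 and 35.2 CPM in I79 young and old, and at 70.0 and 48.8 CPM in I10. The old table was again the lower one in both isolates, and the log2FC was -0.69 (SE 0.13, adjusted p 0.0196). TGFB1, in contrast, stood at 94.9 and 95 CPM in young and old I79 cells and at 90.4 and 98.8 CPM in young and old I10 cells. These 4 values span a narrow range, and the log2FC was 0.07 (SE 0.10, adjusted p 0.642).

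INHBA and the remaining receptors gave no shared direction. INHBA stood at 64.8 and 75.9 CPM in I79 young and old and at 105 and 101 CPM in I10. TGFBR1 stood at 178 and 152 CPM in I79 and at 183 and 232 CPM in I10. TGFBR3 stood at 54.0 and 66.3 CPM in I79 and at 49.4 and 43.3 CPM in I10. Their log2FC over both isolates lay between 0.06 and 0.09, with adjusted p of 0.585 for INHBA, 0.807 for TGFBR1 and 0.798 for TGFBR3.

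The antagonists differed between the isolates. FST stood at 243 and 164 CPM in young and old I79 cells, but at 228 and 321 CPM in those of I10. The log2 ratios were -0.57 (interval -0.64 to -0.50) in I79 and 0.49 (0.43 to 0.55) in I10, and over both isolates the log2FC was -0.036 (SE 0.27). GREM1 stood at 1636 and 1643 CPM in I79 young and old, and at 1675 and 3616 CPM in I10. The I10 old table alone was high, with a log2 ratio of 1.11 in I10 and 0.01 in I79. The log2FC over both was 0.56 (SE 0.31, adjusted p 0.220). With 1 table a group, the difference between isolates could not be tested.

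Of the wider pathway, 98 genes were tested in old against young and 21 were called, 15 higher and 6 lower. That is 21.4%, against 9.57% of all genes tested, and the lists below are read beside the latter share. The median log2FC was 0.11, beside -0.01 over all genes. Other secreted antagonists gave 4 calls among 9, all higher. NOG, which encodes the BMP antagonist noggin, rose from 1.34 to 16.7 CPM (I79) and from 2.09 to 24.2 CPM (I10) (log2FC 3.57, SE 0.19). FSTL3 rose from 36.0 to 103 CPM (I79) and from 34.1 to 103 CPM (I10) (1.56, SE 0.10). CHRDL2, a chordin-like protein, rose (1.66, SE 0.21), as did TWSG1, from 275 to 566 CPM (I79) and from 249 to 489 CPM (I10) (1.01, SE 0.12).

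Of 13 other ligands tested, INHBB, which encodes a further activin subunit, rose from 0.320 to 16.5 CPM (I79) and from 1.20 to 11.9 CPM (I10) (log2FC 4.17, SE 0.53). GDF15 rose from 12.6 to 304 CPM (I79) and from 10.6 to 73.7 CPM (I10) (3.71, SE 0.46), and GDF5, a ligand known from joint development, fell from 37.8 to 5.86 and from 46.4 to 9.56 CPM (-2.47, SE 0.16). The low young counts of INHBB make its fold change imprecise.

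Of the TGF-beta target genes, 5 of 26 were called (19.2%, against 9.57% of all genes tested), 3 higher and 2 lower. The median log2FC was -0.0047. Under the alternatives 6 to 12 were called. LOXL2, a collagen cross-linking oxidase, rose from 616 to 2044 and from 648 to 2262 CPM (log2FC 1.77, SE 0.15), and the transcription factor BHLHE40 rose (1.79, SE 0.13). POSTN, which encodes the matrix protein periostin, fell from 593 to 54.5 CPM (I79) and from 545 to 122 CPM (I10) (-2.80, SE 0.34), and ELN fell (-1.81, SE 0.19). ACTA2 was not called (-0.27, SE 0.34). The smooth muscle markers MYH11 and DES summed to 38.0 and 33.5 CPM in young and to 4.88 and 3.98 CPM in old cells of I79 and I10.

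Of 13 BMP target genes tested, 2 rose (NOG and the homeobox gene MSX2, 2.16, SE 0.17) and 0 fell, while the median log2FC was -0.61. NOG is itself an antagonist and stands on both lists. ID3 (-1.08, SE 0.29) and HEY1 (-1.73, SE 0.36) were not called. SMAD1, a BMP-activated SMAD, fell from 23.3 to 11 CPM (I79) and from 21.4 to 8.23 CPM (I10) (-1.23, SE 0.16), the single call among 8 SMAD genes. The ubiquitin ligase gene SMURF2, a negative regulator, rose from 149 to 526 and from 158 to 672 CPM (1.95, SE 0.14), and the corepressor gene TGIF2 fell (-1.05, SE 0.14).

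Other receptors and co-receptors gave 2 calls among 13. RGMB rose from 112 to 466 CPM (I79) and from 156 to 851 CPM (I10) (log2FC 2.25, SE 0.15), and NEO1 rose from 56.6 to 120 and from 57.2 to 121 CPM (1.08, SE 0.10). For latency and activation, the microfibril gene FBN2 (2.38, SE 0.23) and the integrin gene ITGB5 (2.11, SE 0.13) rose, and ITGB8, whose integrin activates latent TGF-beta, fell from 51.9 to 18.6 and from 48.7 to 12.4 CPM (-1.72, SE 0.16).

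Both comparisons called 10 of the wider genes. The same count over all genes tested was not taken, so this overlap and its directions are a description only. The direction was the same in 6, among them BHLHE40, FSTL3, LOXL2, NEO1 and RGMB, and opposite in 4. ELN and POSTN rose after the knockdown and fell in old cells, whereas GDF15 and TWSG1 fell after the knockdown and rose in old cells. No member was called in both.

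The old and young tables listed single transcripts, which the gene sums hide. TGFB2 encodes a precursor of 414 residues, the main form here, and a longer one of 442 residues. The share of the longer form in the gene's estimated counts was 11.3% in I79 young and 14.3% in I10 young, and 4.97% and 4.43% in old, from 27.9 and 37.8 estimated counts. FST has a full-length form of 344 residues and a shorter one of 317 residues. The shorter form held 21.7% and 23.5% of FST counts in young I79 and I10, and 15.0% and 15.1% in old. In both genes the less abundant form of these pairs had the smaller share in old cells of both isolates, also for FST, whose total moved in opposite directions. The TGFBR2 forms of 567 and 592 residues kept closer shares, the longer with 38.9% and 37.2% in young and 36.9% and 33.2% in old. Forms of other members differed more between the isolates. A BMP4 form (BMP4-206) held 0% in I79 young and 30.3% in I10 young. The TGFBR1 form of 507 residues went from 81.4% in young to 58.6% in old I79 cells, but from 55.7% to 60.3% in I10. All these shares come from an estimate that divides reads between similar transcripts, with 1 table a group, and carry no interval or test. The residue numbers come from a later annotation, in which the transcripts of 414, 344 and 567 residues differ in length from those of the tables.

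**Figure D4:**
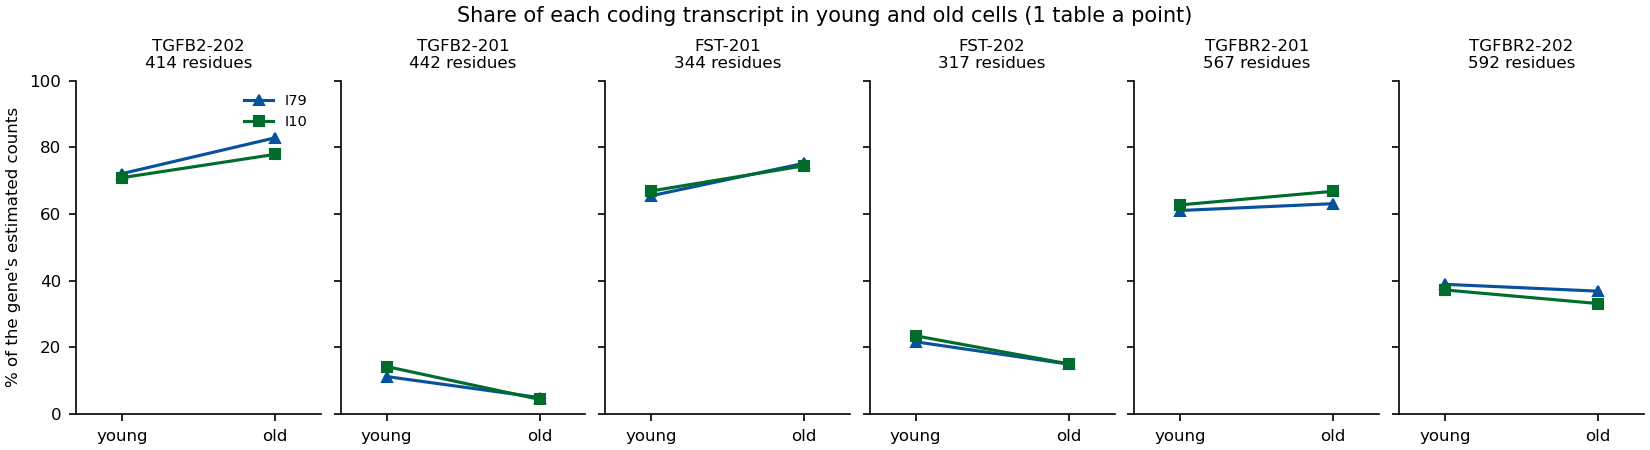
Share of 6 coding transcripts in the estimated counts of their gene (percent, axis from 0 to 100) in young and old cells, with triangles for I79 and squares for I10 and 1 table a point. The TGFB2 form of 442 residues and the FST form of 317 residues have smaller shares in old cells of both isolates, and the TGFBR2 forms move less.

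The ICM tables address what a chemical inducer of senescence does to the same genes, but they were counted in another way than I79 young. Ratios to I79 young therefore hold the counting as well as the treatment, no test was run, and the ratio of WT to I79 young is given beside each but GREM1. That ratio does not show the counting alone, since WT and I79 young also differed in senescence markers. The cell cycle inhibitor gene CDKN1A stood at 1163 and 1196 CPM in WT and 354 in I79 young, the lamin gene LMNB1 at 21 and 19.4 against 73.9, and HMGB2 at 27.1 and 27.3 against 122. The log2 ratios were taken over 24638 genes listed in all tables. Of 11294 genes with at least 10 counts in each library, the log2 ratio exceeded 1 in size in 31.5% for ICM to I79 young, and in 19.2% for WT to I79 young. Of the members, 4 of 10 did so in ICM and 4 of 9 in WT.

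TGFBR2 stood at 369 and 350 CPM in the ICM libraries, with a log2 ratio to I79 young of 1.22 ± 0.053 (SD, n = 2), beside 0.75 for WT. The ratio was 0.66 from coding and noncoding reads only. This setting drops UTR reads from ICM alone, so here and below it sets part of the ICM reads against all reads of I79 young. FST stood at 57.3 and 63.3 CPM in ICM (log2 ratio -2.15 ± 0.10, SD, n = 2), while WT lay above I79 young (1.23). INHBA stood at 17.2 and 20.4 CPM (-1.92 ± 0.17, SD, n = 2), while WT was at 3.06. For both of these genes the ICM and WT ratios had opposite signs, and from coding and noncoding reads only the ICM ratios were -2.03 and -2.67.

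TGFBR3 stood at 17.5 and 20.5 CPM in ICM (log2 ratio -1.64 ± 0.16, SD, n = 2), and the WT ratio of -2.63 was lower still. TGFB2 stood at 61.4 and 64.0 CPM (-0.64 ± 0.042, SD, n = 2), beside -1.33 for WT. Its ICM ratio was -1.21 from coding and noncoding reads only, while WT and I79 young kept all reads. TGFB1 stood at 115 and 133 CPM (0.24 ± 0.15, SD, n = 2; WT 0.41), BMP4 at 47.4 and 46.0 CPM (-0.60 ± 0.030, SD, n = 2; WT -0.49), and TGFB3 had 65 and 46.5 reads (-0.53 ± 0.14, SD, n = 2; WT -0.31). TGFBR1 had a ratio of -0.11 ± 0.059 (SD, n = 2; WT 0.33). From coding and noncoding reads only, the ratio was -0.85 for TGFBR1, -1.27 for TGFB3, -1.94 for TGFBR3, -0.13 for BMP4 and 0.20 for TGFB1. GREM1 had 13818 and 12653 reads and a ratio of -0.72 ± 0.11 (SD, n = 2), which became -2.65 from coding and noncoding reads only.

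The split of the ICM reads by transcript region differed between members. GREM1 held 77.3% and 75.4% of its reads in the 3′ UTR, which makes up 77.8% of the bases of its leading transcript. TGFB1 held 1.5 of 1530.5 reads and 1 of 1461 reads in the 3′ UTR, although this region makes up 26.3% of the transcript. BMP4 likewise held 1.43% and 3.37% of reads in a 3′ UTR that makes up 15.5% of its bases. FST had more reads in the coding region (69.8% and 70.5%) than its 44.9% of bases. The level of a member in these tables therefore changes with the regions counted, by more for GREM1 than for BMP4.

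**Figure D5:**
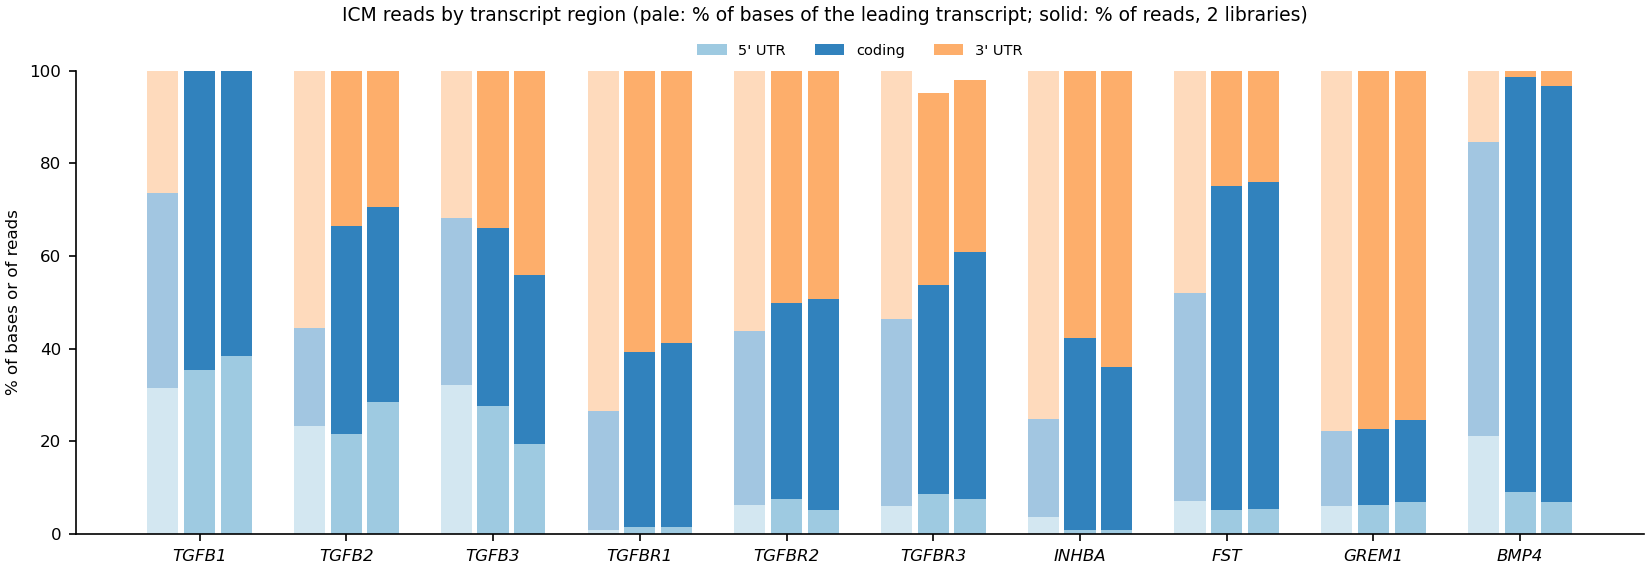
For each member, the pale bar gives the percent of bases of the leading transcript in the 5′ UTR, coding region and 3′ UTR, and the 2 solid bars give the percent of reads in each ICM library; bars below 100 have reads in other region classes. TGFB1 and BMP4 have almost no 3′ UTR reads, while GREM1 follows its bases.

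Genes with the pattern most like each member were sought over 8 columns (4 old and young tables and 4 WT and HMGB2 KD libraries) of log2 CPM centred within each kind of table, among 12775 genes. With 8 columns and so many genes, high coefficients are found for almost any gene, and they are given as a description. TGFB1 was most like FZD8 (Pearson r 0.991) and ITGA5 (0.989), which encodes the fibronectin receptor subunit. TGFB2 was most like IDH1 and DTNB (0.997 and 0.996), TGFB3 like KDM4D and PEX13 (0.997 and 0.994), and BMP4 like ADH5 and SYNJ2BP (0.994 and 0.990). TGFBR2 was most like SPATA18 and AKAP6 (0.998 and 0.997), TGFBR1 like C14orf119 and TCAF1P1 (0.987 and 0.984), and TGFBR3 like SIRT3 and RCBTB1 (0.961 and 0.959). FST was most like RPLP0P2 and MORF4L1 (0.989 and 0.988). INHBA was most like SLC25A45 and TRMT2B (0.961 and 0.906).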

How the data were processed

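Per the labels, RNA was poly(A)-selected, and the processing notes name STAR 2.6.0c and featureCounts on GRCh37. For WT and HMGB2 KD the values deposited by the authors are raw counts per gene. Their summary rows (16.9 to 18.0% of the totals) stayed out of all sums. For old and young cells the authors deposited estimated counts and TPM per transcript, in 1 table a group although the titles list 2 replicates. For ICM they deposited estimated counts per gene and transcript region, assigned by a pipeline not given in the sources used here.

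Estimated counts were summed per gene through GENCODE v44 lifted to GRCh37 (97.7% of transcript IDs, 97.2 to 97.4% of reads) and rounded. The quasi-likelihood test of edgeR 4.0.16 (in R 4.3.3) was run on whole tables, after filterByExpr and TMM scaling, and the Benjamini-Hochberg adjustment was applied. A call needed an adjusted p under 0.01 and an absolute log2FC over 0.6, the thresholds in the study's methods. For mRNA after ICM, the study's results give an adjusted p under 0.05 instead. The SE was taken from the F statistic, as the size of the log2FC divided by its root. Knockdown was set against WT without covariates, and old against young with isolate as a covariate. Nothing says whether replicates came from separate cultures, so p-values measure only the spread between these samples. Replicates were not duplicates (chi-square per degree of freedom 18.0 in WT, 28.0 in HMGB2 KD and 1.78 in ICM). ICM ratios used log2 CPM with a prior count of 2. Intervals are exact Clopper-Pearson intervals at 95%.

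The fit was tested on simulated data, where a log2 change of 1.5 had been put into 200 genes. It recovered 76.5% with 2 false calls for the knockdown design (15338 genes). For old against young (15116 genes) it recovered 76.5% with 17 false calls, more than an adjusted p under 0.01 stands for. Each simulated gene had 1 mean in all tables apart from that change, with no difference between isolates.

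All 10 members were named. From each wider list the genes called in a comparison were named, at most 5 by absolute log2FC, and some of them are not reported here. CCN2, TGFBI, SMAD7, IL11, ADAM12, the fibroblast markers, ID1, ID3, HEY1, SMAD3 and SMAD9, and ACTA2 in old against young, were named after their values were seen. The 2 genes with the highest Pearson r were named for each member tested in both fits. The members and lists were chosen with earlier results of these data known. Alternatives were RLE size factors, no filter, DESeq2 1.42.0, 1 factor of unwanted variation (RUVs), a replicate block, no isolate covariate, each library or isolate left out, an adjusted p under 0.05, other reads, control or prior count for ICM, and, chosen after seeing the data, library totals as the scale.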

Additional observations from a re-analysis of the deposited data

Results flagged for a closer look

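The direction of the old to young change was opposite in the isolates for 4 members, which is what singled them out. The share of all genes tested with opposite directions was not counted, so the 4 are given as a description. The difference between isolates (log2 ratio in I79 minus that in I10) was -1.06 for FST, -0.58 for TGFBR1, 0.49 for TGFBR3 and 0.28 for INHBA. With 1 table a group these differences were not tested. The counting intervals of the log2 ratio excluded 0 in both isolates for FST, TGFBR1 and TGFBR3, and for INHBA the I10 interval (-0.14 to 0.04) held 0.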

How the results depend on the processing

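After HMGB2 knockdown, 3 members were called under every alternative except without HMGB2 KD replicate 2, where FST was not called, so that leaving out a library gave 2 to 3 members, 312 to 999 genes and 19 to 31 wider pathway genes. The lowest count of genes, 312, again came without HMGB2 KD replicate 2. With the replicate block the count of genes was 1243, and no call of a member changed. Over genes, the deviations of WT replicate 1 and HMGB2 KD replicate 1 from their group means had a correlation of 0.125. With 2 replicates a group, those of replicate 2 mirror them. This single comparison is too little to show whether the numbers pair the samples. TGFBR1, never called, had a log2FC of -0.019 with the replicate block, of -0.049 with library totals as the scale, and of -0.36 to 0.31 without 1 library.

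In old against young, the counts of genes called were 4251 without the filter, 3860 at an adjusted p under 0.05 and 3130 with library totals as the scale. Those of members were 4 without the filter, 2 with DESeq2, 2 without the isolate covariate, 4 at an adjusted p under 0.05 and 4 with library totals. Those of wider pathway genes were 46 without the filter, 38 at an adjusted p under 0.05 and 40 with library totals. TGFBR2 was called in all 5 alternative fits. TGFB2, TGFB3 and BMP4 were called in some of them and lay below 0 in all 5. Library totals as the scale moved the median log2FC of all genes from -0.01 to -0.22, and the share of calls that were higher from 60.1% to 32.6%. Under it 2 of 10 members lay above 0, and the log2FC of TGFB1 (-0.15), TGFBR1 (-0.15), TGFBR3 (-0.16) and INHBA (-0.12) turned. That of FST turned without the isolate covariate (0.041). Of 49 ICM ratios under the alternatives, 18 moved by more than the spread between the ICM replicates. All of these moves came with coding and noncoding reads only, or with WT as the control. The former setting drops UTR reads from ICM alone, and the latter changes the table that ICM is set against. None came with the other prior count. Leaving out either ICM replicate could not give such a move, since each of 2 replicates lies nearer to their mean than their SD. These settings therefore say nothing on stability. No further cause was tested.

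Depth limits TGFB3 most, with 25 to 186 counts a library. With 1 residual degree of freedom, a call in old against young rests on spread shared across genes.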
